A study of Arabidopsis thaliana with 44 samples.

Results

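Transcripts of 65 genes were detected in every Arabidopsis group with an Italian genome and were at or near 0 in every group with a Swedish genome. The members were chosen by their measured FPKM: the rule was a level of 2 FPKM or more in all 10 groups of the Italian (IT) background together with a level below 0.2 FPKM in all 12 groups of the Swedish (SW) background, and it kept 65 of the 33557 genes measured. FPKM counts sequenced fragments relative to transcript length and to the size of the library. Because this rule used every group in the table, the contrast between IT and SW levels is a description of the choice and not a result, and no test is attached to it. The same bounds turned around kept 54 genes for the SW background.

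The study grew plants of both ecotypes on soil for 23 days at 22°C under a 12 h photoperiod and collected the entire aerial part, either directly (warm) or after 24 h or 2 weeks at 4°C. The IT background comprised the wild type, the lines labelled it8 and it33 at all 3 conditions, and the line labelled 35s in the warm only. The labels give these lines no genotype beyond the Italian ecotype. The study describes CRISPR mutants of CBF1, CBF2 and CBF3 in IT and plants that overexpress CBF2, and its plotted data use the name IT8 for alleles of the IT triple mutant, whereas it33 is not named there. The SW background comprised the wild type and the lines sw-cbf2, sw-cbf23 and sw-cbf123 at all 3 conditions. The study used CRISPR in SW to inactivate CBF2 alone in sw:cbf2 and all 3 CBF genes in sw:cbf123, and does not describe the making of sw-cbf23. It also reports that the IT wild type carries a natural CBF2 allele that is not functional. Each group had 2 replicates, but the table holds 1 pooled value for each of the 22 groups, so no error, p-value or test could be given for any value below. CBF2 stood at 540 FPKM in the 35s line against 0.202 FPKM in warm IT. In it8 after 24 h of cold CBF2 stood at 26.5 FPKM, beside 25.2 FPKM in IT, so the transcript level does not show an edited coding sequence.

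Reads of both ecotypes were mapped to TAIR10, the genome of another accession, Columbia. Accessions of Arabidopsis differ by deletions, by transposed fragments and by clusters of resistance genes whose copies come and go. A gene that is missing from the SW genome, one whose SW sequence has diverged too far for its reads to map, and one that is silent all give a value at or near 0, and these cannot be told apart here. An exact 0 in this kind of table may also be a failed estimate. CAB1, a chlorophyll-binding protein gene of leaves, was listed at 0 in 7 of the 22 groups and reached 13854 FPKM elsewhere, and RBCS1A, which encodes a Rubisco subunit, was listed at 0 in 1 SW-background group. A further leaf gene, LHCB2.1, stood between 947 and 2988 FPKM in all groups.

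Of the 780 values of the 65 genes in SW-background groups, 631 were listed at exactly 0, and 36 genes were at 0 in all 12. The highest SW value of any member was 0.191 FPKM, for the retroelement SADHU5-1. In the IT background the median level of a member ran from 2.21 to 271 FPKM, and 5 members stood at 100 FPKM or more while 14 stood under 5 FPKM. The middle member was at 10.7 FPKM, beside 16.5 FPKM for all 14654 genes at 2 FPKM or more in every IT-background group. Summed over the 65 genes, the level was 1796 to 3233 FPKM in the IT-background groups and 0.385 to 0.868 FPKM in the SW-background groups.

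**Figure D1:**
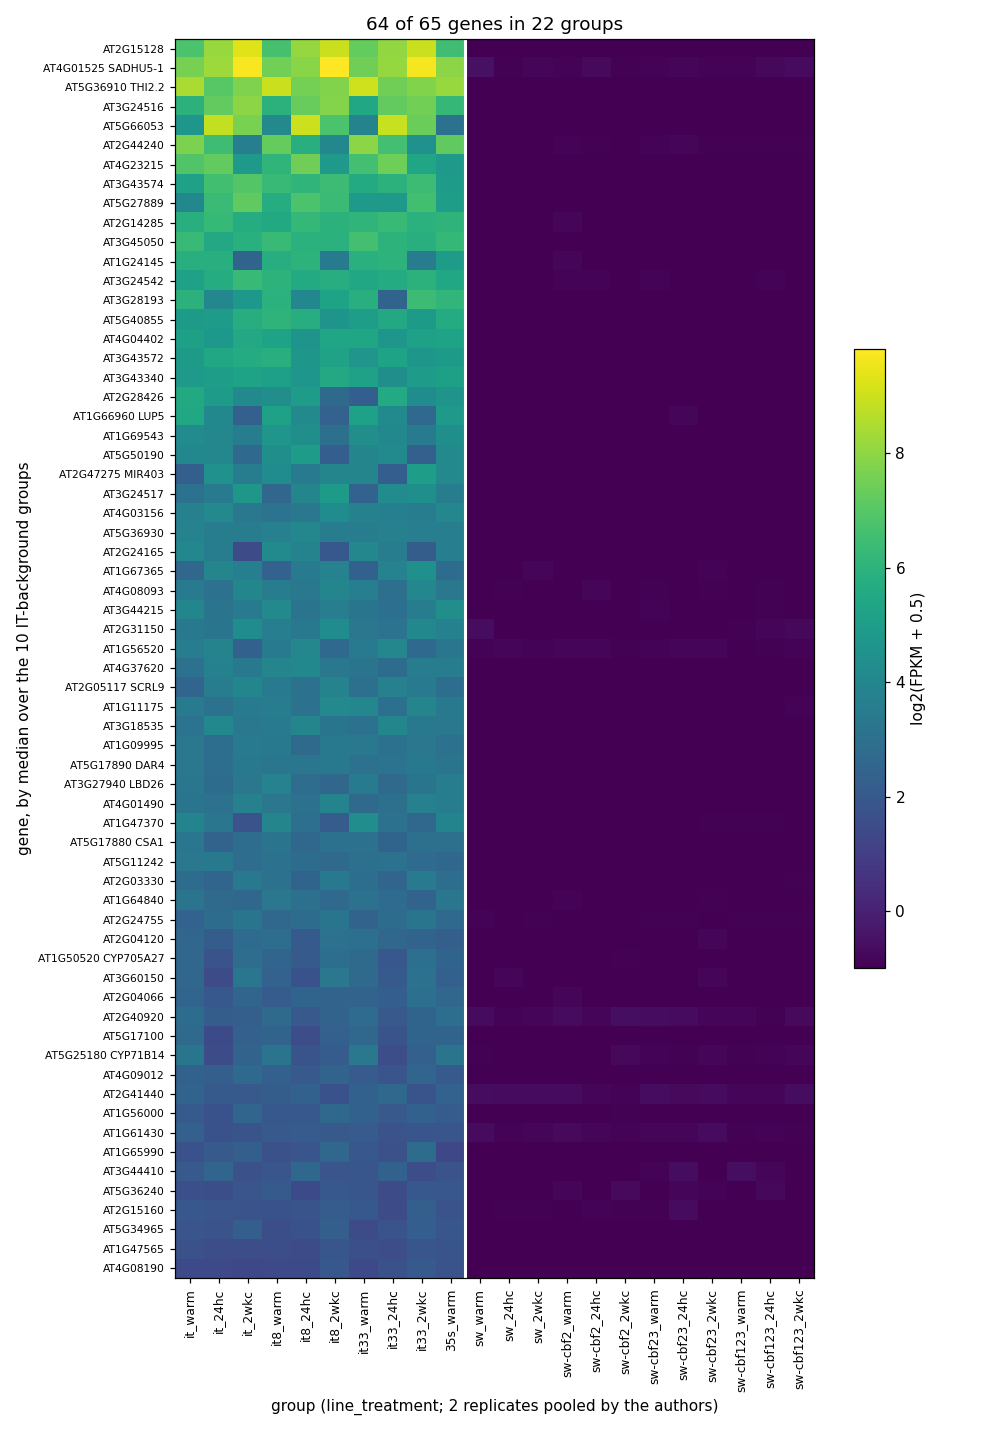
Level of 64 of the 65 genes (rows, ordered by median over the IT-background groups) in each of the 22 groups (columns), coloured by log2(FPKM + 0.5). The white line separates the 10 IT-background groups from the 12 SW-background groups, a boundary that the rule for choosing the genes fixed. Among the IT-background groups, AT5G66053 and AT2G44240 are the rows that change most with cold.

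Levels near the bounds formed no gap. Just inside, AT1G65990 had a lowest IT value of 2.06 FPKM, AT4G08190 also 2.06 FPKM, AT5G17100 2.18 FPKM, AT5G36240 2.22 FPKM and AT1G47565 2.26 FPKM. Just outside, AT1G34575 reached 1.99 FPKM, AT5G22520 1.83 FPKM, AT1G49832 1.70 FPKM, AT4G34881 1.68 FPKM and AGL102 1.60 FPKM. On the SW side the members nearest to the bound after SADHU5-1 were AT3G44410 at 0.159 FPKM, AT2G40920 at 0.159 FPKM, AT2G41440 at 0.149 FPKM and AT2G31150 at 0.134 FPKM. The nearest genes outside it were AT4G20480 at 0.207 FPKM, the resistance gene homologue AT4G11170 at 0.211 FPKM, AT2G19700 at 0.250 FPKM, the receptor-like protein gene RLP34 at 0.253 FPKM and AT1G51270 at 0.265 FPKM.

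By annotation, 45 of the 65 members were protein-coding, 14 were pseudogenes and 6 were non-coding RNA genes. Pseudogenes made up 21.5% of the members, 0.508% of the genes at the IT bound and 37.0% of the mirrored SW set. Nucleotide-binding leucine-rich repeat (NLR) receptors detect pathogen proteins inside the cell, and some other proteins share their TIR domain. Genes with such wording in their annotation made up 5 of 65 members (7.69%), 0.645% of the genes at the IT bound and 1.85% of the mirrored set. These counts rest on wording. They include AT1G47370, annotated as a TIR-domain family protein, and miss NLR genes annotated otherwise, such as the member DAR4, annotated as DA1-related protein 4. Uncharacterized or hypothetical proteins numbered 23. Transcripts under 300 bases numbered 14 of 65, or 21.5%, beside 0.728% of the genes at the IT bound, and the median transcript length was 960 bases for members and 1732 bases for the comparison genes. These shares describe how the members are annotated, and no test was made of them.

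The sequences behind several of the results are given here as they stand in the TAIR10.1 reference, so that the copies and the short genes can be seen. The first is AT5G66053 (chr5:26416661-26416807, minus strand), the member with the strongest cold response, with its first and last codon in capitals. AT3G43572 (chr3:15479021-15479233, minus strand) and AT3G43574 (chr3:15479819-15480028, minus strand) follow with capitals for the bases that are identical in an alignment with a further member, AT3G24542. In AT4G03156 (chr4:1396002-1396784, minus strand, spliced) the capitals mark the stretch shared with the member pseudogene AT2G04120. In AT2G14285 (chr2:6052332-6053994, minus strand, spliced, without its stop codon) they mark the bases identical to RUXF, a gene for a core protein of spliceosomal particles that is detected in both backgrounds. The mature miR403-3p of the MIR403 locus (chr2:19415154-19415174, plus strand) has its seed, bases 2 to 8, in capitals, and the site of AGO2 has the paired bases in capitals.
AT5G66053: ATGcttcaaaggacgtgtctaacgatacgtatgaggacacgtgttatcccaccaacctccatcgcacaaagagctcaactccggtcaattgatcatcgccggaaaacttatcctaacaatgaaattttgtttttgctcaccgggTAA
AT3G43572: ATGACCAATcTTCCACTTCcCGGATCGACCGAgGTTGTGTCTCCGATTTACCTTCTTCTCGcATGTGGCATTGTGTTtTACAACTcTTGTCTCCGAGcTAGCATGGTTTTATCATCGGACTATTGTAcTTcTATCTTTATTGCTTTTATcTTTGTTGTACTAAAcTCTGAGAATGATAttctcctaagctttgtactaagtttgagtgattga
AT3G43574: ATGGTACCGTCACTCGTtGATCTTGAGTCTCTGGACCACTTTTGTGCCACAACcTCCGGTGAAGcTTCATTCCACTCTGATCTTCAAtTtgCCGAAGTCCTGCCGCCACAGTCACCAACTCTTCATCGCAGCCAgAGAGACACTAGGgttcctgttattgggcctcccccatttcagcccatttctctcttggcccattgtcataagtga
AT4G03156: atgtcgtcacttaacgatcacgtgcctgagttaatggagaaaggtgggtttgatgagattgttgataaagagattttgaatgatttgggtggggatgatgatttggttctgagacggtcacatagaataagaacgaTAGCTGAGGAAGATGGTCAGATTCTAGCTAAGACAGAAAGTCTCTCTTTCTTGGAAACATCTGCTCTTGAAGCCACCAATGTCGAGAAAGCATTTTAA
AT2G14285: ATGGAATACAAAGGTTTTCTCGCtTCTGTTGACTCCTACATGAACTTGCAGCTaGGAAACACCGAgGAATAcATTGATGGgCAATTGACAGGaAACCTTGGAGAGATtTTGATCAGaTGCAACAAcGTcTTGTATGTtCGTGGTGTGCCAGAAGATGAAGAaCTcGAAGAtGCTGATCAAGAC
miR403-3p: tTAGATTCacgcacaaactcg
AGO2 site: gGAGTTTGTGCGTGAATCTAA

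Among the immune receptor genes, the members that adjoin each other were CSA1 and DAR4 (also known as CHS3), a TIR-NBS-LRR gene and a DA1-related NLR gene that lie next to each other on chromosome 5 in opposite orientation with 3544 bases between them. CSA1 had a lowest, median and highest IT level of 5.02, 7.48 and 9.03 FPKM and was listed at 0 in all SW-background groups. DAR4 had 7.13, 9.03 and 9.98 FPKM in IT and at most 0.00603 FPKM in SW. DAR4 changed little with cold. CSA1 was lower at 24 h than in the warm in IT, at 5.02 and 9.03 FPKM. The same held in it8, at 5.81 and 8.39 FPKM, and in it33, at 5.17 and 7.65 FPKM. At 2 weeks CSA1 had 6.77 FPKM in IT, 7.68 FPKM in it8 and 7.42 FPKM in it33. Neither gene was called in any comparison within the IT background. Their flanks were detected in both backgrounds. PSRP6, the plastid ribosomal protein gene beside CSA1, had medians of 412 FPKM in IT and 162 FPKM in SW, and AT5G17900 beside DAR4 had 7.09 and 6.14 FPKM.

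In a list of 23 resistance genes that vary among accessions, the IT and SW groups did not overlap and had medians at least 2-fold apart for 2 genes higher in IT, WRR4 among them, and 5 higher in SW (RPP4, RPP5, SNC1, RPP2A and RPP2B), where 3.74% and 2.65% of all genes met the same criteria. Of the 2 genes higher in IT, 1 is a member, so the rule fixed its difference in advance. The other 16 genes of the list met neither criterion. RPP2A, which with RPP2B confers downy mildew resistance, had medians of 0.231 FPKM in IT and 8.83 FPKM in SW.

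AT1G56520, a TIR-NBS-LRR gene, lies beside WRR4, a receptor for white rust. AT1G56520 had 11.5, 13.7 and 4.63 FPKM in warm IT, at 24 h and at 2 weeks, and at most 0.0600 FPKM in SW, where it was above 0 in every group. WRR4 had 29.0, 27.8 and 3.18 FPKM in the same IT groups and 0.276 to 0.785 FPKM in the SW background, which kept it outside the rule. Both genes were thus lower at 2 weeks than in the warm in IT. AT1G56520 was called lower in IT only, with 2-week log2 ratios of -1.23 in IT, -0.76 in it8 and -0.84 in it33. Their outer neighbour AT1G56500 was at 30.4 FPKM in IT and 34.2 FPKM in SW.

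AT5G36930, a further TIR-NBS-LRR gene, was among the steadiest members, with 11.1 to 15.7 FPKM over the 10 IT-background groups and 0 in all SW groups. It lies 4580 bases from THI2.2, which encodes a thionin, a small secreted peptide toxic to microbes. THI2.2 had a median of 221 FPKM in IT and fell at 24 h in all 3 lines, from 348 to 131 FPKM in IT, from 495 to 191 FPKM in it8 and from 527 to 177 FPKM in it33. The genes between THI2.2 and AT5G36930 had higher medians in SW than in IT, but within 2-fold and with overlapping ranges. AT5G36920 had medians of 8.49 FPKM in IT and 14.7 FPKM in SW, and AT5G36925 had 9.02 and 12.9 FPKM. In the warm, AT5G36925 was instead higher in wild-type IT than in wild-type SW, at 16.0 and 6.86 FPKM. AT1G47370, which encodes a TIR-domain protein, had 14.1, 9.14 and 2.92 FPKM in the 3 IT groups and at most 0.0293 FPKM in SW.

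The pseudogene AT4G23215 sits in a tandem array of cysteine-rich receptor-like kinase (CRK) genes, a family of cell-surface kinases induced by pathogens and reactive oxygen. Its IT-background levels were 28.1, 80.7 and 176 FPKM at the lowest, median and highest, and it was at 0 in all SW groups. The 4 CRK genes nearest to it, chosen after their values were seen, were also lower in SW but were detected there. CRK12 had medians of 18.5 FPKM in IT and 2.33 FPKM in SW, CRK13 8.26 and 1.56 FPKM, CRK14 33.7 and 0.750 FPKM, and CRK15 13.5 and 1.03 FPKM. Next along the array, CRK16 had 3.53 and 5.02 FPKM.

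**Figure D2:**
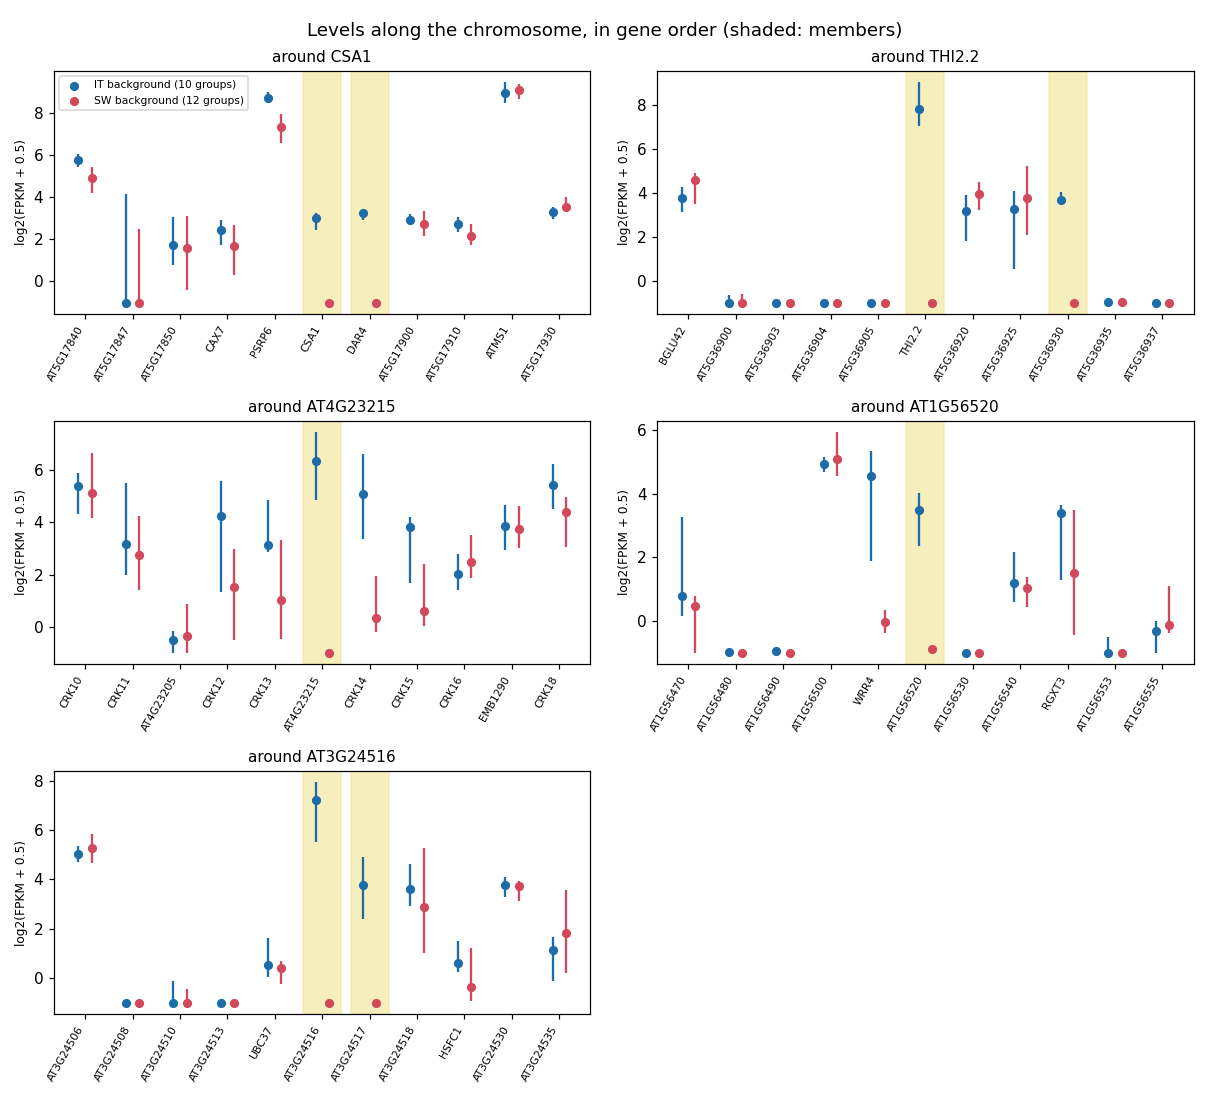
Levels of 11 consecutive genes around each of 5 members, in gene order and not to genomic scale; points are medians, lines run from the lowest to the highest of the 10 IT-background groups (blue) or 12 SW-background groups (red), and the y axis is log2(FPKM + 0.5). Shaded genes are members. PSRP6 beside CSA1, the genes CRK12, CRK13, CRK14 and CRK15 around AT4G23215, and WRR4 beside AT1G56520 are detected in both backgrounds and have lower medians in SW than in IT.

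Over all members, 6 of the 130 nearest neighbours were members themselves, 57 were under 1 FPKM in both backgrounds, and 67 were other genes at 1 FPKM or more in at least 1 background. Of those 67, 45 had IT and SW medians within 2-fold (with 0.5 FPKM added), 21 were higher in IT and 1 was higher in SW. That is 31.3% higher in IT, beside 10.7% of the 18601 non-member genes at that level. The comparison is a description, since neighbours were compared on the same contrast that chose the members. With the nearest gene at 1 FPKM or more in any group used instead, 31 members had such a gene on both sides with medians within 2-fold. In all, 11 members had another member within 20 kb: CSA1 and DAR4, THI2.2 and AT5G36930, AT3G43572 and AT3G43574, AT2G15128 and AT2G15160, and the group AT3G24516, AT3G24517 and AT3G24542.

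Several members resemble other genes of the reference. Of the 45 with a protein, 13 had their closest protein at 70% identity or more over at least 50% of their length, and for 8 of these the related gene had IT and SW medians within 2-fold. AT2G14285 encodes 61 residues, all identical to part of the 96 residues of RUXF. Its coding bases were identical to RUXF at 169 of 183 positions, as the capitals above show. AT2G14285 had 46.8 to 80.1 FPKM in the IT background and 0.0785 FPKM in 1 SW group, while RUXF had medians of 216 FPKM in IT and 188 FPKM in SW.

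AT3G43340 was another short copy of a gene detected in both backgrounds, and encodes 74 residues at 91.9% identity with SVR1, a chloroplast pseudouridine synthase of 410 residues. Its IT median was 33.1 FPKM, beside 36.0 FPKM for SVR1 in IT and 62.7 FPKM in SW. AT2G04066 matched the transporter gene AT2G04080 at 98.5% identity, and AT2G04080 was at 12.8 FPKM in IT and 13.5 FPKM in SW. AT3G60150 matched AT2G44525 at 88.2% identity, and AT2G44525 had medians of 21.5 and 13.2 FPKM. AT2G03330 matched AT3G11810 at 73.7% identity, and AT3G11810 had medians of 26.8 and 21.3 FPKM. Reads from near-identical stretches can be assigned to either copy, and how the values of these members divide with those of their relatives was not tested.

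AT1G56000, annotated as an oxidoreductase, had a copy in AT1G55980 at 100% identity over 85% of its protein, and AT1G55980 was at 0.191 FPKM in IT and 0 in SW. The S-locus lectin kinase gene AT1G61430 and AT1G61440 shared 82.8% identity, and AT1G61440 was at 0.329 and 0.0855 FPKM. The cytochrome P450 gene CYP705A27 and CYP705A25 shared 81.5%, and CYP705A25 was at 0.176 and 0.212 FPKM. CYP71B14, with an IT median of 4.71 FPKM, had CYP71B11 as its closest relative at 81.0%, which was at 10.6 FPKM in IT and 6.37 FPKM in SW. LUP5, a member of the family of enzymes that close oxidosqualene into triterpenes, had LUP2 at 78.9%, which was at 1.85 and 3.15 FPKM. The cystatin-like gene AT5G17100 had its relative AT5G17110 at 75.9%, and AT5G17110 was at 1.21 FPKM in IT and 0 in SW.

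Members were also related to each other. AT3G43572 and AT3G43574 lie 585 bases apart and match different parts of AT3G24542, annotated as related to beta-galactosidase, elsewhere on chromosome 3. The alignment covered 178 bases of AT3G43572 with 167 identical, and 147 bases of AT3G43574 with 140 identical, which are the runs of capitals shown above. Their IT medians were 33.5 FPKM for AT3G43572, 73.6 FPKM for AT3G43574 and 50.5 FPKM for AT3G24542. A second set holds AT4G03156, AT4G08190 and the pseudogene AT2G04120, annotated in part as small GTPases, which steer vesicle traffic. The last 98 bases of AT4G03156 occur letter for letter in AT2G04120, and AT4G08190 shared 94.7% of 188 bases with AT2G04120. Their IT medians were 12.5, 2.21 and 5.46 FPKM, and the closest protein to AT4G08190 outside the set, RABA2b, was at 3.39 FPKM in IT and 4.87 FPKM in SW.

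Cold responses within the IT background were not part of the rule, except that it required 2 FPKM in every IT group and so kept out genes that fell below it. The cold groups were also kept under dimmer light, and the plants given 2 weeks of cold were older at harvest than the warm ones. Cold, light and, at 2 weeks, age cannot be told apart. A gene was called when its ratio, with 0.5 FPKM added to both values, was at least 2-fold and the higher group reached 1 FPKM. At 24 h in IT, 8 members rose, where 9.21% of 18619 genes tested did, and 7 fell, where 10.9% did. At 2 weeks in IT, 11 rose (7.89% of all genes tested) and 10 fell (11.7%). In it8, 7 rose (11.4%) and 6 fell (10.7%) at 24 h, and 7 rose (8.08%) and 12 fell (8.84%) at 2 weeks. In it33, 5 rose (11.4%) and 8 fell (11.3%) at 24 h, and 9 rose (7.56%) and 8 fell (9.31%) at 2 weeks. As shares of the 65 members these counts ran from 7.69% to 18.5%. The median log2 ratio of the members lay between -0.24 and 0.08 in these 6 comparisons.

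Called in the same direction in all 3 lines were 3 rises (6.41% of all genes tested) and 5 falls (6.91%) at 24 h, and 6 rises (4.48%) and 7 falls (5.91%) at 2 weeks. With transcripts under 300 bases left out, an alternative chosen after seeing the data, these counts were 1, 4, 3 and 7. In IT alone at 24 h, the counts without them were 1 rise and 6 falls, with 3 and 4 in it8 and 2 and 6 in it33. The rises at 24 h in all 3 lines were AT5G66053, AT3G24516 and AT1G67365, and the falls were THI2.2, LUP5, AT2G44240, CYP71B14 and AT3G28193.

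The strongest response was that of AT5G66053, an uncharacterized gene of 147 bases. It had 25.1 FPKM in the warm, 453 FPKM at 24 h and 198 FPKM at 2 weeks in IT. In it8 it had 16.6, 510 and 107 FPKM, and in it33 13.9, 488 and 171 FPKM. Every cold group was above every warm group. The log2 ratio at 24 h was 4.15 in IT, 4.90 in it8 and 5.09 in it33. AT5G66053 lies wholly inside AT5G66052 on the opposite strand, and whether counting used strand is not given in the sources used here, so reads of the overlapping genes cannot be told apart. AT5G66052, looked up after its values were seen, had 1.82, 43.0 and 15.3 FPKM in IT and less than 0.2 FPKM in every SW group. In all, 13 members overlapped another measured gene, 10 on the opposite strand and 3 on the same strand. The same limit holds for reads in the shared bases, which ran from 2 bases in AT1G61430 to the full length of AT5G66053.

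At 2 weeks the transcripts that rose in all 3 lines included mobile and non-coding sequences. SADHU5-1, a non-autonomous retroelement annotated as a pseudogene, had 195 FPKM in the warm, 299 FPKM at 24 h and 847 FPKM at 2 weeks in IT. In it8 it had 182, 238 and 911 FPKM, and in it33 178, 280 and 818 FPKM. The 2-week log2 ratios of SADHU5-1 lay between 2.11 and 2.32. AT2G15128, a non-coding RNA gene of 213 bases and the member with the highest IT median, had 109, 283 and 636 FPKM in IT. AT3G24516, which encodes a short uncharacterized protein, had 61.9, 149 and 244 FPKM, and its neighbour AT3G24517 had 8.1, 10.5 and 26.0 FPKM. AT3G24517 overlaps AT3G24518 on the same strand over 71.3% of its length, and AT3G24518 was detected in both backgrounds. The long non-coding RNA AT1G67365, which overlaps the meiotic gene ASY1 on the opposite strand, had 5.41, 14.9 and 12.2 FPKM, while ASY1 had medians of 0.627 FPKM in IT and 0.788 FPKM in SW.

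The members that fell at 2 weeks in all 3 lines were all 300 bases or longer. AT2G44240, which encodes a protein with a domain of unknown function, had 204 FPKM in the warm, 88.7 FPKM at 24 h and 11.9 FPKM at 2 weeks in IT. It had 156, 56.4 and 15.8 FPKM in it8 and 246, 95.0 and 22.1 FPKM in it33. LUP5 had 45.0, 16.3 and 4.45 FPKM in IT, with 2-week log2 ratios of -3.20 in IT, -2.81 in it8 and -2.47 in it33. AT1G24145 stayed at 56.6 and 56.7 FPKM in the warm and at 24 h in IT and stood at 5.10 FPKM at 2 weeks. The same late fall was seen in AT2G24165, which RefSeq annotates as a pseudogene of RLP30, with 16.2, 11.6 and 2.27 FPKM, and in the non-coding RNA AT5G50190, with 16.1, 15.6 and 5.91 FPKM. AT1G47370 and AT4G23215 also fell at 2 weeks in all 3 lines.

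Other members fell at 24 h and were higher again at 2 weeks. CYP71B14 had 8.64, 2.34 and 4.90 FPKM in IT, 8.36, 3.02 and 3.96 FPKM in it8 and 9.49, 2.41 and 4.53 FPKM in it33. THI2.2, described above, had 215 FPKM at 2 weeks in IT, 222 FPKM in it8 and 219 FPKM in it33. These values were above those at 24 h, but in it8 and it33 THI2.2 was still called lower than in the warm. AT3G28193, a gene of 129 bases, had 61.7, 15.6 and 27.1 FPKM in IT and 56.7, 5.11 and 85.0 FPKM in it33. It fell at 24 h in all 3 lines, but its 2-week value was below the warm value in IT and it8 and above it in it33.

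**Figure D3:**
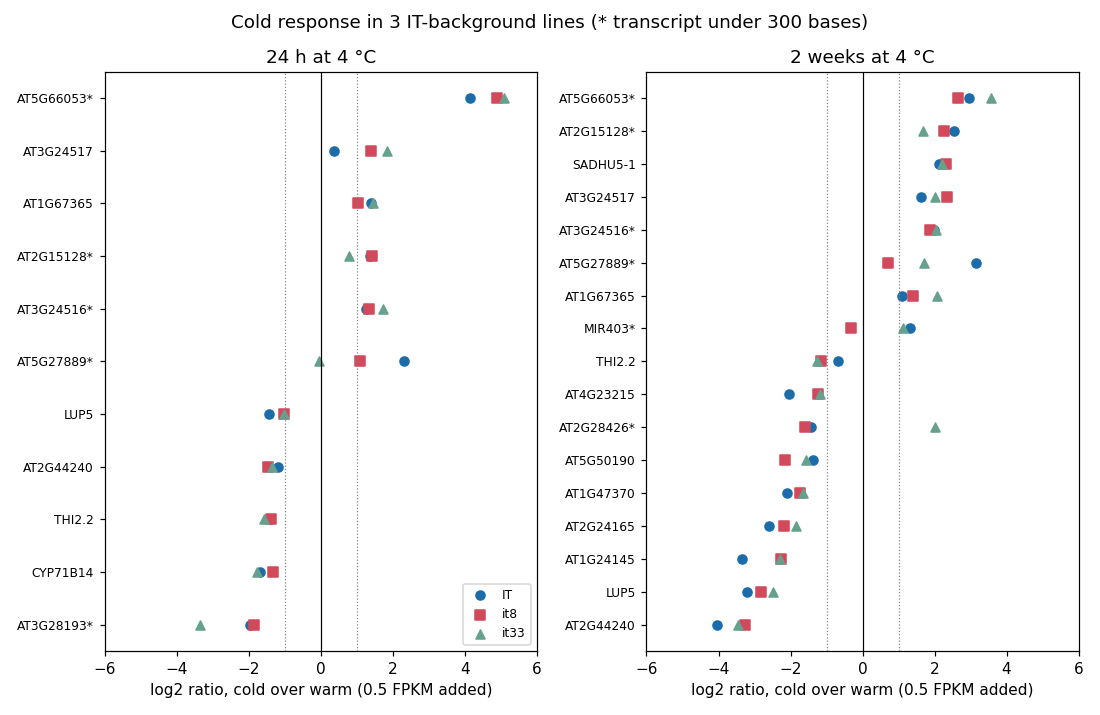
Log2 ratios of cold over warm levels (x axis, 0.5 FPKM added) for the members called in the same direction in at least 2 of the lines IT, it8 and it33, at 24 h (left) and 2 weeks (right). Dotted lines mark 2-fold, and an asterisk marks a transcript under 300 bases. AT5G66053 is highest in both panels and AT2G44240 is lowest at 2 weeks, and the 3 lines spread widely for AT2G28426 and AT5G27889.

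In number, differences between the lines were few. Against IT, it8 had 4 members higher (0.848% of all genes tested) and 1 lower (1.33%) in the warm, 1 higher (0.807%) and 1 lower (1.57%) at 24 h, and 0 higher (0.733%) and 2 lower (0.906%) at 2 weeks. The line it33 had 1 higher (0.665%) and 1 lower (0.588%) in the warm, 0 higher (0.616%) and 3 lower (0.984%) at 24 h, and 3 higher (0.887%) and 0 lower (0.855%) at 2 weeks. The 35s line had 2 higher (1.77%) and 2 lower (3.68%) than warm IT. As shares of the 65 members these counts ran from 0% to 6.15%, and most were above the share of all genes tested. Altogether there were 21 calls in 10 members, and 18 of the 21 were on transcripts under 300 bases. Without those transcripts each of the 7 comparisons had 0 or 1 call.

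These calls on short transcripts fell in 7 members, and in 4 of them, MIR403, AT3G28193, AT5G27889 and AT5G40855, they went both ways. MIR403, a precursor of 135 bases, was higher in it8, it33 and 35s in the warm, with 18.7, 14.7 and 16.4 FPKM against 4.31 FPKM in IT. At 24 h it was lower in it8 and it33, with 10.1 and 4.26 FPKM against 21.8 FPKM in IT. AT3G28193, of 129 bases, had 15.6 FPKM in IT and 5.11 FPKM in it33 at 24 h, but 27.1 and 85.0 FPKM at 2 weeks. AT5G27889, of 162 bases, had 16.1 FPKM in warm IT, 51.2 FPKM in it8, 28.8 FPKM in it33 and 33.3 FPKM in 35s, whereas at 24 h it was lower in it33, with 27.8 FPKM against 82.7 FPKM in IT. AT5G40855, of 237 bases, had 29.4 FPKM in warm IT and 64.8 FPKM in it8, but 53.0 and 24.0 FPKM at 2 weeks. It overlaps UPM1 on the opposite strand over 85.7% of its length, and UPM1 had medians of 23.6 FPKM in IT and 37.9 FPKM in SW. The calls on the other short transcripts went 1 way. AT2G28426, of 132 bases, had 47.7 FPKM in warm IT, 19.9 FPKM in it8 and 4.24 FPKM in it33, and at 24 h it had 31.4, 30.1 and 49.1 FPKM in the same lines, with no call. AT3G43574 had 35.9 FPKM in warm IT and 79.3 FPKM in it8, its only call.

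Spread among the warm IT-background groups moved with transcript length. The ratio of the highest to the lowest of the 4 warm groups had a median of 2.09 for the 14 members under 300 bases and 1.37 for the 51 longer ones. It was 1.94 and 1.25 for all genes at the IT bound in the same length classes. The part of length in the line differences was not tested.

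**Figure D4:**
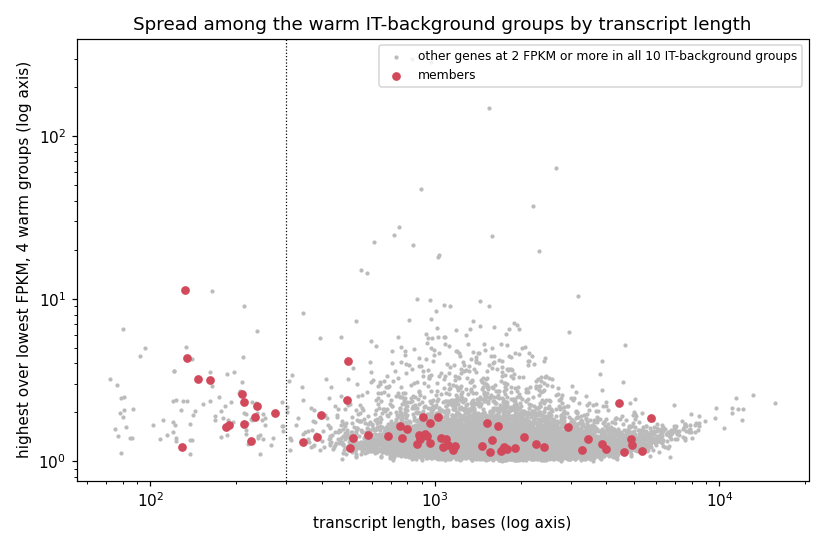
Ratio of the highest to the lowest FPKM among the 4 warm IT-background groups (y axis, log) against transcript length in bases (x axis, log) for the 65 members (red) and the other genes at 2 FPKM or more in all 10 IT-background groups (grey). The dotted line marks 300 bases. The highest ratio among members is 11.2, for AT2G28426, and the highest among members of 300 bases or longer is 4.13, for AT4G23215.

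Only 3 members of 300 bases or longer differed between lines. AT4G23215 had 118 FPKM in warm IT, 66.5 FPKM in it8, 95.0 FPKM in it33 and 28.6 FPKM in 35s, where it was called lower. Of the CRK genes directly beside it, CRK14 had 19.7 FPKM in 35s and 42.2 FPKM in warm IT, while CRK13 differed little, at 7.75 and 9.48 FPKM. CRK12, beyond CRK13, had 13.7 and 20.4 FPKM. These differences do not all reach 2-fold. AT1G24145 was higher in it33 at 2 weeks, with 11.4 FPKM against 5.10 FPKM in IT, and it8 was at 10.5 FPKM. The non-coding RNA AT5G50190 had 31.7 FPKM in it8 at 24 h and 15.6 FPKM in IT, a ratio barely past the threshold. Among the short genes, AT5G66053 was lower in 35s, at 7.83 FPKM against 25.1 FPKM in warm IT.

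MIR403 gives rise to miR403, a plant miRNA that targets AGO2, an Argonaute protein of antiviral RNA silencing. The precursor had 4.26 to 32.5 FPKM in the IT background and was at 0 in all SW groups. The AGO2 transcript site with the best pairing to miR403-3p began at base 3429 of 3602 and had 1 mismatch in 21 bases, the lower-case base above. AGO2, looked up after its values were seen, had 7.58 to 30.7 FPKM in the IT background and 3.76 to 14.3 FPKM in the SW background. These ranges overlapped with all conditions pooled. Split by condition, a split made after the values were seen, every IT-background group was above every SW-background group. How many of all genes separate in this way was not counted, and a link to MIR403 was not tested. The lowest IT and highest SW values were 8.036 and 4.803 FPKM in the warm and 21.06 and 14.31 FPKM at 24 h. At 2 weeks they were close, at 7.575 and 7.098 FPKM.

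Further members were regulatory or uncharacterized genes. LBD26, a gene of the LOB-domain transcription factor family, had 5.50 to 13.3 FPKM in the IT background and 0 in SW. The MADS-box gene AT2G41440 had 2.78 to 5.69 FPKM and was above 0 in all SW groups, at up to 0.149 FPKM. The F-box genes AT1G64840 and AT2G40920 had IT medians of 6.98 and 5.05 FPKM. SCRL9, which encodes a cysteine-rich peptide related to the self-incompatibility ligand SCR, had 5.37 to 15.0 FPKM. AT3G45050, an uncharacterized protein gene, was among the 12 highest members with 46.2 to 97.1 FPKM, and both of its neighbours were higher in IT, AT3G45040 with medians of 17.5 and 5.91 FPKM and the nitrate transporter gene NRT2.6 with 4.97 and 0.168 FPKM. The 3 genes targeted in the study, CBF1, CBF2 and CBF3, were detected in the cold in both backgrounds and are no members.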

How the data were processed

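RNA-seq was performed on the aerial part of 44 samples in 22 groups. The authors mapped reads to TAIR10 and deposited FPKM values from Cuffdiff, 1 pooled value per group, with TopHat2 2.1.0 and Cufflinks 2.1.1 named in the submitters' processing notes. Read depth and strandedness are not given in the sources used here, so no interval or count test was possible, and the replicate spread is unknown. The members and all gene lists were chosen with earlier results of these data known.

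Ratios were log2((FPKM + 0.5)/(FPKM + 0.5)), called at 2-fold where either group reached 1 FPKM; such ratios understate changes of low genes. The fixed plan of naming genes took the 12 highest members, the largest calls per comparison, clusters within 20 kb, close protein relatives, and genes at the bounds. Gene models, positions, sequences and names came from RefSeq's TAIR10.1, in which all 65 members were found (1 is counted but not reported here by name), and relatives from BLAST+ 2.17.0 at an E-value of 1e-05. Identity was read over at least 50% of the protein. Scripts used Python 3.11.15 and Biopython 1.88. The rule and the calls were run on simulated data whose planted genes lay clear of the thresholds. That run checks the code only and says nothing about members near the bounds. Alternatives changed the bounds, the added value, the filter, the scaling and the distances.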

Additional observations from a re-analysis of the deposited data

How the results depend on the processing

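The number of genes kept was 121 at bounds of 1 and 0.5 FPKM, 34 at 5 and 0.1 FPKM, and 36 with all SW-background groups at 0. Scaling by median of ratios kept all 65 members and quantile normalization kept 63 of them, and leaving out the 35s column stayed within 1.5 times. Of 88 alternatives, 69 stayed within 1.5 times of the value reported. For it8 over IT at 24 h the count of called members fell from 2 to 1 with 1 FPKM added, with either scaling and with members of 300 bases or longer only. Restricting to members of 300 bases or longer, chosen after seeing the data, gave fewer calls by construction: 7 at 24 h and 12 at 2 weeks in IT, 7 at 24 h in it8, 8 at 24 h and 11 at 2 weeks in it33. For lines against IT it gave 0 for it8 in the warm and at 2 weeks, 0 for it33 in the warm and at 24 h, 1 for it33 at 2 weeks and 1 for 35s. Nearest neighbours with medians within 2-fold numbered 81 instead of 45 when genes never reaching 1 FPKM were passed over, because more neighbours then had a level. No paired analysis was possible because the table holds 1 pooled value per group, and for the same reason no replicate could be left out. Without read counts, levels near the 0.2 FPKM bound cannot be told from 0.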

Other observations

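The core of the CRT/DRE element that CBF proteins bind, ACCGAC or GCCGAC on either strand, occurred within 1000 bases upstream of the annotated start of 19 of 65 members (29.2%) and of 22.5% of all measured genes placed in the reference. A match is only a match of letters in the Columbia reference, and the IT sequence was not analysed here.

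The mirrored set of 54 genes, detected in the SW background only, held 20 pseudogenes, 28 protein-coding genes and 6 non-coding RNA genes. Chromosome 2 held 15 of the 65 IT members (23.1%), 5 of the 54 mirrored genes (9.26%) and 15.3% of the genes at the IT bound. These shares are given as values only.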
